A study of Mus musculus with 9 samples.

Results

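The proteasome subunit genes are 34 genes that encode the 20S core and the 19S cap of the proteasome. They were taken by symbol from a table of 52550 gene identifiers, and all 34 were found and passed the filter on low counts. The core list holds 17 genes, the 7 alpha ring genes Psma1 to Psma7 and the 10 beta ring genes Psmb1 to Psmb10. The cap list holds 17 genes, the 6 base ATPases Psmc1 to Psmc6 and 11 Psmd genes. RNA was sequenced from mouse haematopoietic stem cells, the bone marrow cells that give rise to the blood lineages, in 9 libraries. The 3 old KO libraries came from mice aged 22 to 24 months whose strain is labelled B6N.129S6-Sphk2tm1Rlp/J and Sphk2 cKO. No Cre line is named in the sources used here. The 3 old WT libraries came from wild-type mice of that age range, and the 3 young WT libraries from wild-type mice aged 2 months. Sphk2 encodes sphingosine kinase 2, which phosphorylates sphingosine. Each library was made from 1000 cells, sorted for Sca1, c-Kit and CD150 and against lineage markers and CD48. The labels describe the libraries of a type as technical replicates, so the p-values cover no more than the spread between such libraries, which may be technical. They do not say how many mice each library holds.

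The proteasome is the main protease for proteins tagged with ubiquitin. Its core is a barrel of stacked rings, in which the outer alpha rings gate the entry and the inner beta rings cut peptide bonds. The cap binds tagged proteins, removes the ubiquitin, unfolds the chain with a ring of ATPases and feeds it into the core. Psmb5, Psmb6 and Psmb7 encode the catalytic beta subunits of most cells. Psmb8, Psmb9 and Psmb10 encode their replacements in the immunoproteasome, the form that immune and blood cells use and that interferon induces. Haematopoietic stem cells are known for low protein synthesis and for sensitivity to misfolded protein.

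The promoter sequences of RefSeq (GRCm38.p6) covered 28 of the 34 genes, 14 of the core and 14 of the cap, and offered 1 feature that divided them. The letters CCGGAAG, a form of the site that ETS factors bind, were searched on both strands in the 250 bases before each start site. They were found in 9 of 28 promoters (32.1%), against 7.83% of 27025 promoters of the same length. They lay in 8 of 14 cap promoters (57.1%), those of Psmc1, Psmc2, Psmc6, Psmd2, Psmd4, Psmd6, Psmd11 and Psmd12, and in 1 of 14 core promoters (7.14%), that of Psma6. The only core gene with the letters and 3 of the cap genes are shown with up to 20 bases on each side, from the gene's strand and with the match in capitals. They were picked because their values are given below. In Psmd12 the match is on the other strand, so its reverse complement stands in capitals.
Psma6 (chr12:55398673-55398719, plus strand): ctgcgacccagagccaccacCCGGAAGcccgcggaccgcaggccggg
Psmc6 (chr14:45329704-45329750, plus strand): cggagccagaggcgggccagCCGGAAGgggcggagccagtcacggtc
Psmd4 (chr3:95042713-95042759, minus strand): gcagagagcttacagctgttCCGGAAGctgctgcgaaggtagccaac
Psmd12 (chr11:107479491-107479527, plus strand): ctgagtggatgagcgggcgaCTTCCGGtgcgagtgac
The first base of the match stood 132 bases before the start in Psma6, 100 in Psmc6, 125 in Psmd4 and 17 in Psmd12. A gene counted where any of its promoters, at most 2 for a member and 26 for any gene, held the letters. The other letters searched did not divide core from cap in this way. The antioxidant response form TGANNNNGC, which the proteasome regulator Nfe2l1 and its relative Nfe2l2 bind, was in 10 of 28 promoters (35.7%), against 38.7% of all. CCAAT was in 11 of 28 (39.3%), against 37.5% of all. The letters GAAA, any 2 bases and GAAA again, a form bound by interferon regulatory factors, was in 2 of 28, those of Psmb3 and Psmd4 (7.14%, against 3.46% of all), and in none of the 3 immunoproteasome promoters. No match of 1 search overlapped a match of another. A match is a stretch of letters and does not show that a factor binds there.

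The share of sequence that fell in genes differed widely between libraries, and every comparison below rests on that. Counts in genes ran from 11284847 to 17544945 in old KO, from 3145167 to 5115003 in old WT and from 28088637 to 74021822 in young WT libraries. Counts outside annotated genes took 45.0% to 61.9% of all counts in old KO, 80.8% to 87.7% in old WT and 6.51% to 12.5% in young WT. Olfactory receptor genes, silent in blood, had 5.55 to 7.29 reads per kb of exons in old KO, 5.41 to 10.4 in old WT and 1.09 to 1.42 in young WT. That density was taken as each library's background. A gene is called above background in a library where its count reached 20 and was 5 or more times that given by the density over its exons. Of 8 stem cell and sort gate markers, 6 to 7 were above background in old KO libraries, 0 to 2 in old WT and 7 to 8 in young WT, and none was at 0. Mature myeloid markers, 8 genes that the sort should leave low, summed to 21.4 to 681.6 CPM in old KO, 47.4 to 649.9 in old WT and 225.6 to 455.4 in young WT, where CPM is the count scaled to the library's total in genes. Lymphoid markers summed to 13.4 to 168.6, 92.1 to 132.8 and 7.94 to 82.1 CPM in old KO, old WT and young WT. Erythroid markers summed to 4.38 to 61.3, 12.1 to 28.1 and 31.8 to 322.1 CPM in the same order, and megakaryocyte markers to 88.9 to 556.6, 40.9 to 396.8 and 367.7 to 828.6 CPM. Of the lymphoid list 0 to 1 genes were above background in old KO, 0 to 1 in old WT and 1 to 2 in young WT, and of the myeloid list 2 to 7, 2 to 3 and 5 to 6. Listed at 0 in at least 1 library were Cd3e, Ltf, S100a9, Hba-a1, Hba-a2, Hbb-bs, Hbb-bt, Pf4, Ppbp and Gp1bb. Cd48, which the sort selects against, had 0.513 to 1.78 CPM in old KO, 4.13 to 11.0 in old WT and 0 to 8.69 in young WT. It was above background in no old library and in 1 young WT library, at 8.69 CPM. The part of these cell types in the values below was not tested. Sphk2 itself had 12, 23 and 8 counts in old KO, against 20, 1 and 35 in old WT, and 1684, 88 and 576 in young WT. It was above background in no old library, so it does not check the genotype labels.

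In young WT all 34 genes were above background in all 3 libraries, and no single gene dominated their counts. The members together had 4540, 4199 and 3542 CPM in the 3 libraries, and the highest single member took 10.9% to 12.1% of that and the highest 3 took 27.3% to 28.8%. Per kb of annotated exons, the highest mean levels over the 3 libraries were those of Psmb4, a non-catalytic beta subunit, at 183 CPM per kb, and of Psma6 at 164 CPM per kb. The lowest was that of Psmd11, a cap subunit, at 2.45 CPM per kb. The immunoproteasome gene Psmb8 stood at 98.7 CPM per kb and Psmb5, the subunit it replaces, at 92.6. Psmb10 stood at 50.2 CPM per kb and its partner Psmb7 at 18.5. Psmb9 stood at 30.6 CPM per kb and its partner Psmb6 at 129.9. The median coefficient of variation of a member over the 3 libraries was 46.8%, against 64.2% over 5874 genes that were likewise above background throughout young WT. Per kb the levels of Psmb8 and Psmb5 differed by less than that spread. By CPM alone Psmb8 was higher in every library, at 285.8 to 424.2 against 47.7 to 139.2 for Psmb5. Its annotated exons are longer, with 3381 bases against 899. Psmb7, at 125.7, 60.1 and 3.87 CPM, and Psmb2, at 83.6, 51.5 and 7.86 CPM, were low in the third young WT library. Psmd2, at 3.40, 82.1 and 38.6 CPM, was low in the first.

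In both old groups most members were near background or below their young WT range, a few were as high as in young WT or higher, and which were high changed from library to library. In old KO libraries 18, 15 and 25 of the 34 genes were above background, or 52.9%, 44.1% and 73.5%. Of those 5874 genes, 43.3%, 42.3% and 57.0% were so in the same libraries. In old WT libraries 4, 9 and 4 of the 34 were above background, or 11.8%, 26.5% and 11.8%, against 14.3%, 17.01% and 9.82% of the 5874 genes. Psmb2, Psmb4, Psmb8, Psmd4 and Psmd8 were above background in all 3 old KO libraries, and no member was so in all 3 old WT libraries. Psmb3, Psmb4, Psmb5, Psmb9 and Psmd13 were above background in 2 old WT libraries, 7 others in 1, and 22 in none. In old KO the corresponding counts were 16 in 2 libraries, 11 in 1 and 2 in none, those 2 being Psmd1 and Psmd12. Members above background in an old KO but in no old WT library numbered 21, and Psmd12 was the 1 member with the opposite pattern. The share of the 5874 genes with either pattern was not computed. Of these genes 72.9% were above background in no old WT library, against 64.7% of the members. For old KO these shares were 27.2% and 5.88%. In all 3 libraries 4.92% of the 5874 genes were so in old WT and 24.7% in old KO, against 0% and 14.7% of the members. Background was 1.72 to 3.02 CPM per kb in old WT, 0.316 to 0.646 in old KO and 0.0159 to 0.0459 in young WT. The same CPM thus passed it least readily in old WT. The median member had 3.43 to 4.72 CPM per kb in old WT, 2.43 to 8.19 in old KO and 30.4 to 41.5 in young WT. Psmd1, the large scaffold of the cap base, was above background in no old library. In bulk libraries of this kind, fewer cells that express a gene and less of its RNA per cell cannot be told apart.

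**Figure D1:**
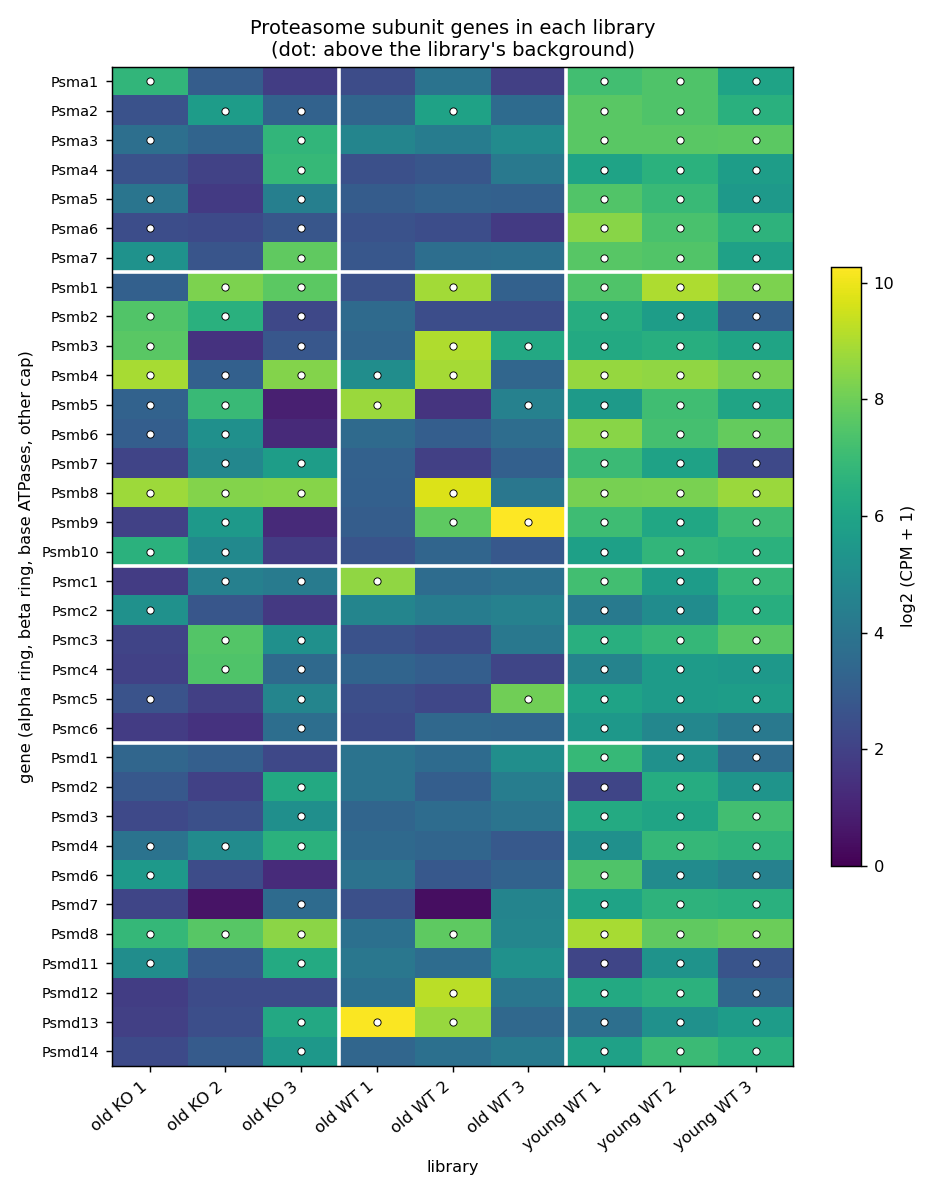
Level of each of the 34 genes (rows) in each of the 9 libraries (columns) as log2(CPM + 1), with a white dot where the gene was above that library's background. All young WT tiles carry a dot, 18, 15 and 25 of 34 do in old KO, and 4, 9 and 4 of 34 do in old WT.

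**Figure D2:**
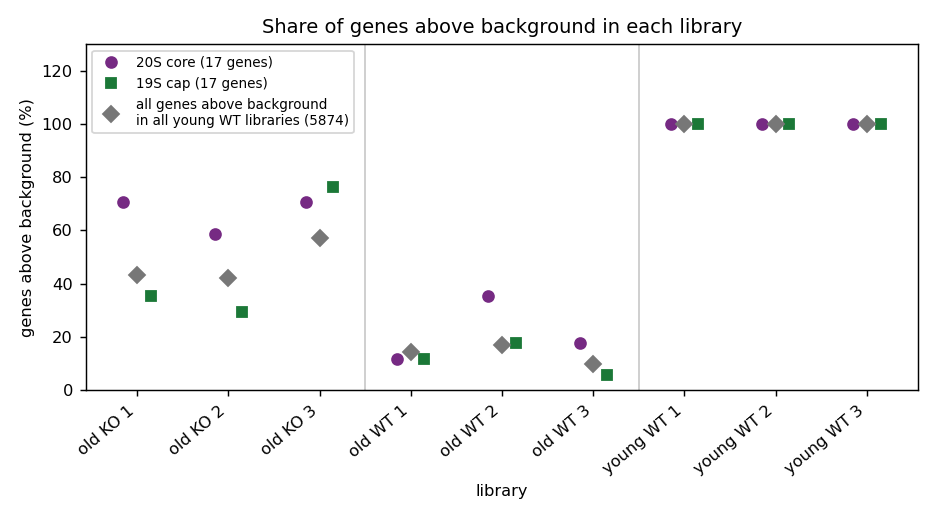
Share of genes above background (percent, vertical axis) in each library, for the 17 core genes, the 17 cap genes and the 5874 genes above background throughout young WT. Core genes reached 70.6%, 58.8% and 70.6% in old KO and 11.8%, 35.3% and 17.6% in old WT.

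The highest 3 members of each library held 86.1%, 49.1% and 78.0% of all member CPM in old WT libraries 1, 2 and 3. In old KO libraries 1, 2 and 3 they held 59.1%, 47.9% and 44.6%, so the ranges of both old groups overlapped. Psmd13, a lid subunit, took 51.7% of all member CPM in the first old WT library, Psmb8 took 20.9% in the second and Psmb9 took 61.4% in the third. In old KO the highest member took 25.5% (Psmb4), 19.4% (Psmb8) and 15.4% (Psmd8). The members summed to 1897, 1720 and 2296 CPM in old KO, 2311, 4013 and 2016 CPM in old WT, and 4540, 4199 and 3542 CPM in young WT. The median member had 7.69, 7.36 and 19.6 CPM in old KO, 9.29, 11.3 and 13.9 CPM in old WT, and 85.7, 97.4 and 74.6 CPM in young WT. Both old groups thus lay below young WT by the median, while by the sum the second old WT library lay within the young WT range. Per library 23 to 26 members in old KO and 24 to 25 in old WT were below their lowest young WT value. The same held for 46.0% to 48.5% and for 46.2% to 51.6% of the 5874 genes. The median coefficient of variation over 3 libraries was 116.5% in old KO, 60.9% in old WT and 46.8% in young WT. Over the 5874 genes it was 79.0%, 56.1% and 64.2%.

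Old WT was set against young WT, groups that differ in age, and 25 of 34 members were called lower and none higher. Counts outside annotated genes were 80.8% to 87.7% of all counts in old WT and 6.51% to 12.5% in young WT. Age and this difference between the libraries cannot be told apart here. Called means an adjusted p under 0.05 over all 32582 tested genes, from edgeR's quasi-likelihood test with TMM scaling, which sets factors from the bulk of the genes, and the adjustment of Benjamini and Hochberg, and fold changes are log2 values with their SE. Of all tested genes 18.4% were called lower and 18.6% higher. Most tested genes were at background, however, and of the 5873 tested genes that were above background throughout young WT 80.0% were called lower, so the members' 73.5% was no larger than that of other expressed genes. The median log2 fold change of the members was -6.41, and that of the 5873 genes was -5.34. The called genes were all 7 alpha ring genes, 3 of 4 non-catalytic beta genes, 3 of 6 catalytic beta genes, 4 of 6 ATPases and 8 of 11 other cap genes. Over all genes the median fold change of old WT was 3.92 log2 units lower with TMM than with total counts. With total counts as the only scaling 11 members were called lower and 1 higher, Psmd13, against 3.43% lower and 68.5% higher over all tested genes, and the median was -2.53, against -1.28 over the 5873 genes, of which 18.7% were called lower. By mean CPM 26 of the 34 (76.5%) were lower in old WT, against 75.35% of the 5874 genes. After each library's background was subtracted, no member was called by edgeR, and the median was -3.18. Of the 8392 genes tested that way 0.0596% were called lower and 0.0834% higher. An unadjusted p under 0.05 was reached by 6 members (17.6%), against 19.5% of those genes. The CPM ranges of 18 of the 34 lay wholly below young WT, against 5.87% of all tested genes and 32.6% of the 5874. No member had a range wholly above young WT, where 65% of all tested genes did.

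Old KO was set against old WT, groups of the same age range that differ in genotype. EdgeR called no member, against 0.457% of tested genes higher and 0% lower. Counts outside annotated genes were 45.0% to 61.9% in old KO and 80.8% to 87.7% in old WT. Genotype and this difference between the libraries cannot be told apart here. At an unadjusted p under 0.05 there were 16 members (47.1%), against 11.8% of all tested genes and 40.2% of the 5873. With total counts (0.00614% of tested genes higher and 0% lower) or subtracted background (0.155% higher and 0.0119% lower) no member was called either. DESeq2, which gave an adjusted p to 30 members, called 8 higher and 1 lower, Psmd12, against 23.9% higher and 1.67% lower over all genes with an adjusted p and 35.2% higher and 1.58% lower over the expressed genes among them. Of the 34 fold changes 27 were above 0 with TMM and 22 with total counts, and the median was 2.52 with TMM and 0.47 with total counts. Over the 5873 genes the medians were 1.99 and 0.02. With TMM the fold change was below 0 for 20.6% of the members and 18.2% of the 5873 genes. With total counts these shares were 35.3% and 49.6%. The median over all genes was 1.90 log2 units higher with TMM than with total counts. The CPM ranges did not overlap for 3 members. Psmd4 lay higher in old KO, as 1.91% of all tested genes and 10.1% of the 5874 did, and Psmd1 and Psmd12 lay lower, as 48.8% and 20.6% did. These 3 were chosen after their values were seen.

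Old KO and young WT differ in age, in genotype and in the share of counts outside annotated genes. Between them 8 of 34 members were called lower and none higher. Over all tested genes 5.84% were called lower and 6.91% higher, and 25.9% were called lower over the 5873. The 8 were Psma2, Psma5, Psma6, Psmb6, Psmd1, Psmd3, Psmd7 and Psmd12, 4 from the core and 4 from the cap. All 34 fold changes were below 0 with TMM, with a median of -3.56. Of the 5873 genes 95.3% were below 0, with a median of -2.77. With total counts 30 members (88.2%) were below 0, against 67.15% of the 5873. With that scaling 6 were called lower, against 3.92% lower and 52.7% higher over all tested genes and 17.1% lower over the 5873. DESeq2 called 19 of 30 lower (63.3%), against 14.7% lower and 12.8% higher over all genes with an adjusted p and 61.4% lower over the expressed genes among them. A subtracted background left none, against 0% lower and 0.0477% higher. The count fell to 0 with a replicate block and without any 1 of the old KO libraries, and was 2, 4 and 2 without old WT library 1, 2 or 3, which share in the estimate of the spread. It was 2, 5 and 9 without young WT library 1, 2 or 3. The CPM ranges of 14 members lay wholly below young WT, against 4.06% of all tested genes and 22.5% of the 5874, and none lay above, where 53.5% of all tested genes did. The 3 comparisons share their libraries pairwise, so their values are not independent of each other.

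**Figure D3:**
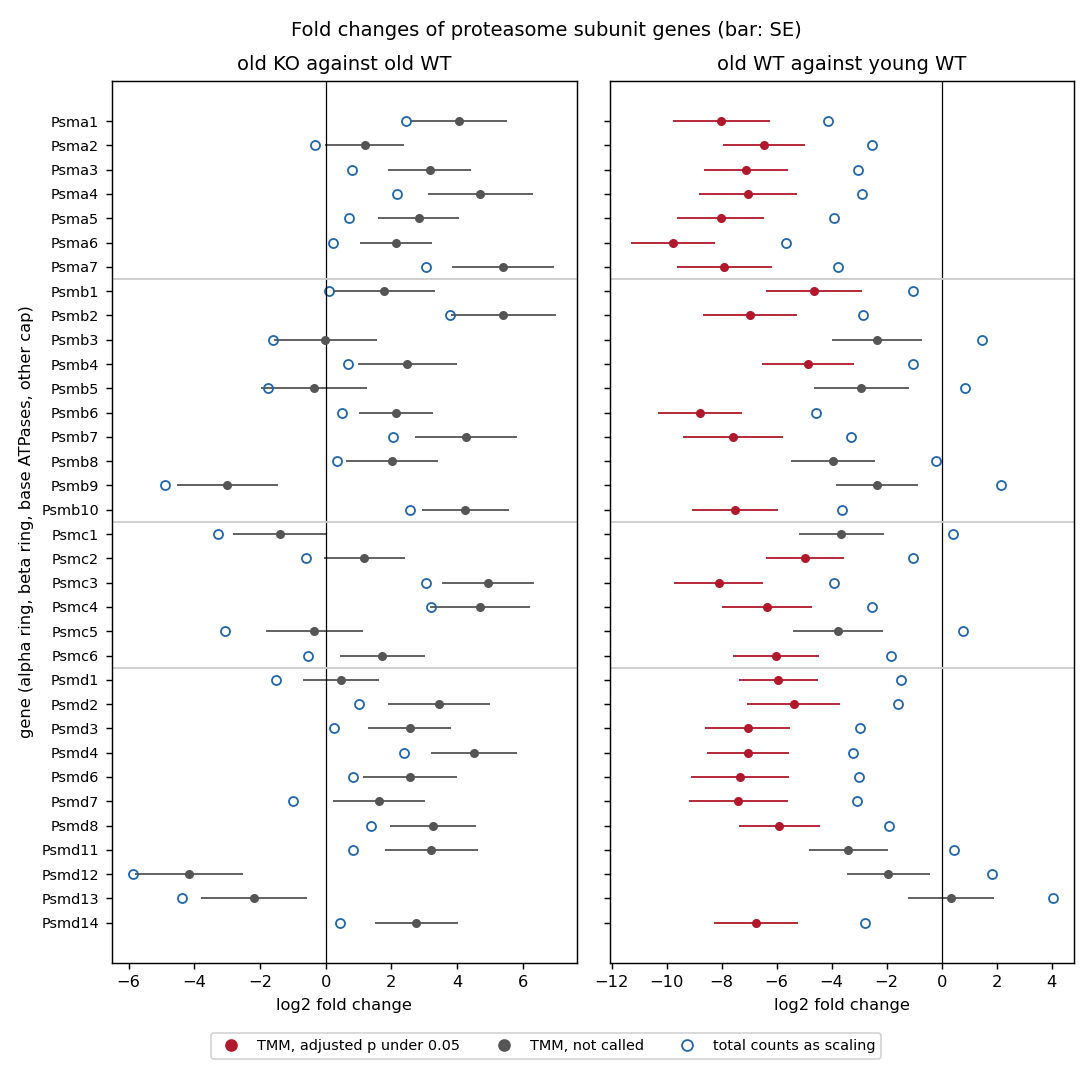
Log2 fold change of each gene (rows) in old KO against old WT (left) and old WT against young WT (right), with filled points and SE bars for TMM scaling and open circles for total counts. In the right panel 25 genes are called lower with TMM, and Psmd13 is the 1 gene right of 0 with both scalings.

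The alpha ring, which gates the core, had a median fold change of -7.91 in old WT against young WT. Psma6 had 4.38, 3.90 and 5.81 CPM in old KO, against 5.08, 4.45 and 2.32 CPM in old WT, and 351.5, 157.6 and 99.5 CPM in young WT. Every old library lay far below every young WT library. The fold change was -9.78 ± 1.53 in old WT against young WT (SE; n = 3 per group, edgeR adjusted p = 0.00457) and -7.63 ± 1.40 in old KO against young WT (edgeR adjusted p = 0.0298). The second call was lost without old KO library 1, 2 or 3, where the fold change was -7.58, -7.49 and -8.26. Psma5 had 14.8, 2.39 and 20.6 CPM in old KO, 6.84, 8.27 and 7.83 CPM in old WT, and 178.8, 123.2 and 46.6 CPM in young WT. Its fold change was -8.04 ± 1.57 in old WT against young WT (edgeR adjusted p = 0.00614), again with no overlap. All 7 alpha genes were called lower in old WT with TMM, 5 with total counts, and all 7 had CPM ranges wholly below young WT. Of the 5873 expressed genes 80.0% were called lower with TMM and 18.7% with total counts. Of the 5874 genes 32.6% had ranges wholly below young WT. Only Psma2 was above background in an old WT library, at 59.1 CPM in the second.

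Psma1, Psma4 and Psma7 each reached the young WT range in 1 old KO library, and the other 4 alpha genes reached it in none. Psma7 had 36.5, 5.49 and 218.4 CPM in old KO, against 5.87, 12.1 and 13.0 CPM in old WT, and 195.4, 180.2 and 57.9 CPM in young WT. The third old KO library was above all young WT libraries and the second below all old WT libraries by CPM. Neither that second library nor any old WT library was above background for Psma7, and background in CPM was higher in old WT. Set against old WT, old KO gave a fold change of 5.41 ± 1.55 (SE; n = 3 per group, edgeR adjusted p = 0.146). Psma4 was high in the same library, with 4.98, 3.10 and 115.8 CPM in old KO, 4.69, 5.72 and 16.8 CPM in old WT, and 61.4, 92.9 and 51.1 CPM in young WT. The fold change was 4.72 ± 1.59 in old KO against old WT (edgeR adjusted p = 0.220) and -7.05 ± 1.77 in old WT against young WT (edgeR adjusted p = 0.0131). That last call was lost without old WT library 1, at -6.89, and with total counts, at -2.89. Psma1 was highest in the first old KO library, at 106.6 CPM, within the 60.8 to 171.5 CPM of young WT. Psma3 peaked in the third at 108.9 CPM and Psma2 in the second at 50.9 CPM, both below their lowest young WT values of 197.7 and 92.2 CPM.

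The non-catalytic beta genes, which complete the inner rings, were uneven between the old libraries. Psmb4 had 484.3, 7.89 and 329.7 CPM in old KO, against 32.1, 467.4 and 9.57 CPM in old WT, and 395.4, 384.0 and 290.0 CPM in young WT. Each old group held a library at or above the young WT level and another more than 10 times lower. Its fold change in old WT against young WT was -4.86 ± 1.68 (SE; n = 3 per group, edgeR adjusted p = 0.0366), a call that only 4 of 9 leave-one-out fits kept. It was lost without old WT library 1 or 3, at -4.45 and -4.37, and without any 1 young WT library, at -4.53, -5.15 and -5.16. With total counts Psmb4 stood at -1.055 and was not called. Psmb2 had 179.2, 90.0 and 3.71 CPM in old KO, 10.8, 4.45 and 4.35 CPM in old WT, and 83.6, 51.5 and 7.86 CPM in young WT. This gave a fold change of 5.42 ± 1.59 in old KO against old WT (edgeR adjusted p = 0.155), with ranges that overlapped through the third old KO library. In old WT against young WT it was -6.97 ± 1.71 (edgeR adjusted p = 0.0118), and the call was lost without old WT library 3, at -6.72. The call was also lost with total counts, at -2.84. Psmb1 and Psmb3 were each high in the second old WT library, at 466.1 and 530.3 CPM, against 171.6 to 509.2 and 62.8 to 84.9 CPM in young WT.

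Among the catalytic genes Psmb6, Psmb7 and Psmb10 were near background in every old WT library, while Psmb5, Psmb8 and Psmb9 each had at least 1 old WT library above the young WT range. Psmb6, the caspase-like subunit, had 7.43, 34.6 and 1.37 CPM in old KO, 10.8, 7.31 and 11.9 CPM in old WT, and 348.5, 149.5 and 231.5 CPM in young WT. No old library reached the young WT range. Its fold change was -8.79 ± 1.52 in old WT against young WT (SE; n = 3 per group, edgeR adjusted p = 0.00529) and -6.65 ± 1.38 in old KO against young WT (edgeR adjusted p = 0.0298). The second call was lost without old KO library 1, 2 or 3, at -6.47, -8.19 and -6.23. Psmb7, the trypsin-like subunit, had 3.34, 25.7 and 51.2 CPM in old KO, 8.21, 2.86 and 7.83 CPM in old WT, and 125.7, 60.1 and 3.87 CPM in young WT. The ranges overlapped because of the third young WT library, and the fold change in old WT against young WT was -7.60 ± 1.81 (edgeR adjusted p = 0.0109). Psmb5, the chymotrypsin-like subunit, had 8.32, 122.4 and 0.855 CPM in old KO, 419.0, 1.91 and 21.8 CPM in old WT, and 47.7, 139.2 and 63.0 CPM in young WT. It was not called in old WT against young WT at -2.92 ± 1.73 (edgeR adjusted p = 0.167), stood at 0.84 with total counts, and was called at -7.13 without old WT library 1, the library where it was high.

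The immunoproteasome genes behaved differently from each other in the old libraries. Psmb8 had 439.6, 332.9 and 340.7 CPM in old KO, against 7.82, 840.0 and 15.7 CPM in old WT, and 285.8, 290.7 and 424.2 CPM in young WT. Old KO lay at the young WT level in every library, while old WT was high in 1 library and near background in the others. In old WT against young WT its fold change was -3.96 ± 1.53 (SE; n = 3 per group, edgeR adjusted p = 0.0520), and it was called at -9.17 without old WT library 2. Psmb9 had 2.97, 45.5 and 1.31 CPM in old KO, 7.23, 209.2 and 1238 CPM in old WT, and 136.0, 68.9 and 130.7 CPM in young WT. It was the immunoproteasome gene with 2 old WT libraries above every young WT library, and all old KO libraries lay below young WT. Its fold change was -2.99 ± 1.53 in old KO against old WT (edgeR adjusted p = 0.496) and -2.34 ± 1.49 in old WT against young WT (edgeR adjusted p = 0.195), and with total counts it was 2.14 in old WT against young WT. Psmb10 had 94.2, 28.1 and 2.51 CPM in old KO, 5.28, 9.22 and 6.09 CPM in old WT, and 56.1, 107.1 and 93.6 CPM in young WT. It was called lower in old WT against young WT at -7.51 ± 1.55 (edgeR adjusted p = 0.00711), without overlap, and stood at 4.26 ± 1.34 in old KO against old WT (edgeR adjusted p = 0.187).

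**Figure D4:**
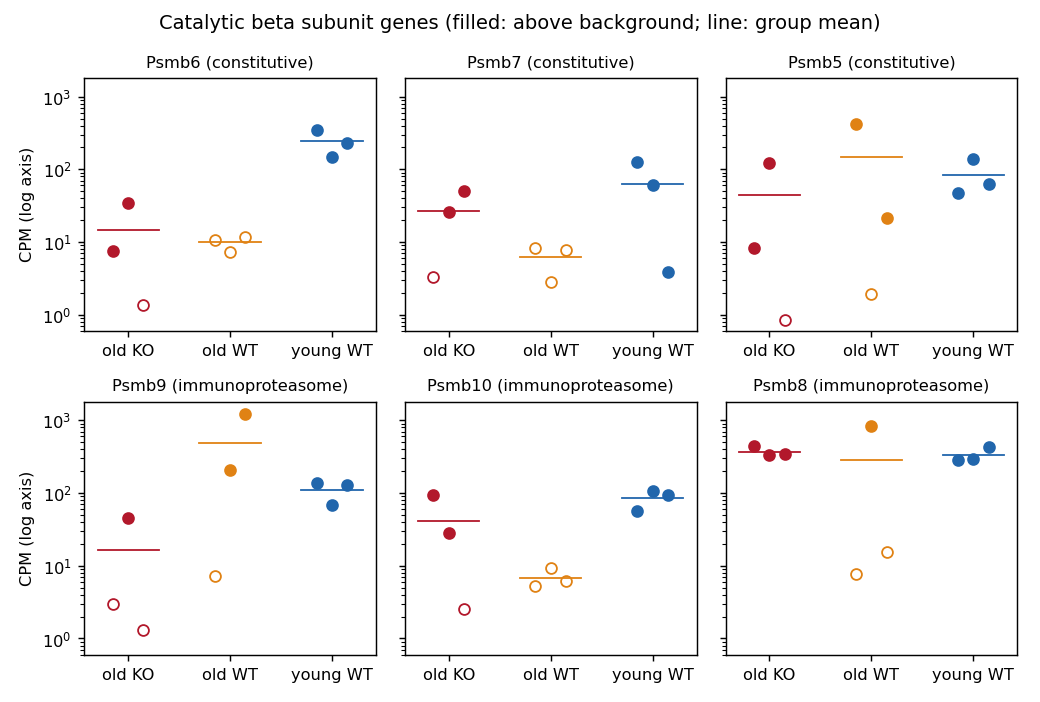
CPM (log axis) of the 6 catalytic beta genes in the 3 libraries of each group, filled where above background, with a line at the group mean; constitutive genes are in the upper row and the immunoproteasome gene that replaces each stands below it. Psmb8 is filled in every old KO and young WT library and in 1 old WT library, and Psmb9 reaches 1238 CPM in the third old WT library.

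The base ATPases unfold the protein and open the gate. Psmc3 had 3.34, 181.7 and 34.4 CPM in old KO, against 5.08, 4.13 and 16.5 CPM in old WT, and 87.9, 114.9 and 191.5 CPM in young WT. It had a fold change of 4.96 ± 1.40 in old KO against old WT (SE; n = 3 per group, edgeR adjusted p = 0.143), the smallest adjusted p of a member in that comparison, and -8.10 ± 1.62 in old WT against young WT (edgeR adjusted p = 0.00652). Psmc4 was high in the same old KO library, with 2.97, 172.9 and 10.5 CPM in old KO, 8.99, 7.31 and 3.48 CPM in old WT, and 23.1, 49.0 and 43.7 CPM in young WT. The fold change was 4.69 ± 1.52 in old KO against old WT (edgeR adjusted p = 0.199) and -6.35 ± 1.65 in old WT against young WT (edgeR adjusted p = 0.0142). That call was lost without old WT library 3, at -6.01, and with total counts, at -2.525. In both genes the second old KO library was the highest and the first lay below all old WT libraries by CPM. Neither the first old KO library nor any old WT library was above background for these genes, and background in CPM was higher in old WT. Psmc6, the gene of the ETS letters shown above, had 2.53, 1.86 and 12.1 CPM in old KO, 3.91, 10.2 and 9.57 CPM in old WT, and 43.7, 25.7 and 17.1 CPM in young WT. All old libraries lay below all young WT libraries, and its fold change in old WT against young WT was -6.02 ± 1.56 (edgeR adjusted p = 0.0142), with the call lost without old WT library 1 or 3, at -5.82 and -6.03. With total counts Psmc6 was not called either, at -1.85. Psmc1 and Psmc5 were not called in that comparison, and each had 1 old WT library above young WT, at 376.7 CPM in the first and 261.9 CPM in the third.

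The other cap genes encode the ubiquitin receptors, scaffolds and lid. Psmd4, a ubiquitin receptor, had 14.2, 30.2 and 93.4 CPM in old KO, against 10.6, 9.22 and 6.38 CPM in old WT, and 34.6, 112.8 and 101.2 CPM in young WT. Every old KO library was above every old WT library, with a fold change of 4.51 ± 1.32 (SE; n = 3 per group, edgeR adjusted p = 0.154). In old WT against young WT it was -7.04 ± 1.48 (edgeR adjusted p = 0.00748), without overlap. Psmd3, a lid subunit, had 3.79, 4.70 and 33.6 CPM in old KO, 9.19, 11.5 and 14.5 CPM in old WT, and 75.9, 63.8 and 140.6 CPM in young WT. All old libraries lay below young WT, and its fold change in old WT against young WT was -7.05 ± 1.55 (edgeR adjusted p = 0.00853). Psmd12, another lid subunit, had 2.67, 4.08 and 4.05 CPM in old KO, 12.7, 598.7 and 15.4 CPM in old WT, and 73.8, 95.2 and 9.18 CPM in young WT. Old KO was below both other groups in every library by CPM. Psmd12 was above background in no old KO library and, in old WT, only in the second. Set against old WT, old KO gave a fold change of -4.16 ± 1.66 (edgeR adjusted p = 0.305), and 0.19 without old WT library 2, the library where it was high.

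Psmd13, Psmd1 and Psmd8 are described here because their values stood out. Psmd13 had 2.82, 4.52 and 72.2 CPM in old KO, 1194, 415.6 and 10.2 CPM in old WT, and 12.5, 35.9 and 49.9 CPM in young WT. The first and second old WT libraries were above every young WT library and the third below all of them. Its fold change in old WT against young WT was 0.33 ± 1.56 with TMM (SE; n = 3 per group, edgeR adjusted p = 0.857) and 4.06 with total counts (edgeR adjusted p = 0.0276). It was -0.99 with TMM without old WT library 1. Psmd1 had 9.59, 7.53 and 3.65 CPM in old KO, 14.1, 11.1 and 32.8 CPM in old WT, and 118.5, 35.7 and 11.8 CPM in young WT. In old KO against young WT its fold change was -5.47 ± 1.41 (edgeR adjusted p = 0.0346), a call that only the fits without young WT library 2 or 3 kept among the 9 leave-one-out fits, which ran from -6.08 to -3.67. Psmd8, the cap gene with the highest mean in old KO, had 112.4, 191.9 and 354.4 CPM in old KO, 12.9, 212.4 and 25.2 CPM in old WT, and 492.6, 217.8 and 249.7 CPM in young WT.

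Core and cap had similar numbers of genes called lower in old WT with TMM and of CPM ranges below young WT. More core than cap genes were called lower with total counts and were above background in several old libraries. With TMM 13 of 17 core and 12 of 17 cap genes were called lower in old WT against young WT, with median fold changes of -7.05 and -5.94. With total counts 8 core and 3 cap genes were called lower and 1 cap gene higher. The CPM ranges of 9 core and 9 cap genes lay wholly below young WT. In old KO libraries 12, 10 and 12 of the 17 core genes were above background, and 6, 5 and 13 of the 17 cap genes. In old WT libraries the counts were 2, 6 and 3 core genes and 2, 3 and 1 cap genes. The core thus had more genes above background than the cap in the first and second old KO and in the second and the third old WT libraries, and no test of that difference was made. The core share of all member counts was 84.8%, 62.2% and 62.1% in old KO, 24.9%, 66.3% and 73.4% in old WT, and 67.3%, 70.1% and 62.8% in young WT. The means were 69.7% ± 13.1 in old KO, 54.9% ± 26.2 in old WT and 66.7% ± 3.65 in young WT (SD, n = 3 each), so the ranges of all groups overlapped. The low value of the first old WT library went with Psmd13, which held 51.7% of its member CPM.

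The immunoproteasome share of the catalytic beta counts was 96.6%, 69.0% and 86.6% in old KO, 4.44%, 98.9% and 96.8% in old WT, and 47.8%, 57.2% and 68.5% in young WT. The means were 84.1% ± 14.0 in old KO, 66.7% ± 53.9 in old WT and 57.8% ± 10.4 in young WT (SD, n = 3 each). All 3 old KO libraries lay above all young WT libraries, by as little as 69.0% against 68.5%, while old WT spanned nearly the whole scale. Per kb of exons the second old KO library had 44.0%, within the young WT range of 35.9% to 52.6%, and the ranges overlapped. The constitutive genes summed to 19.1, 182.6 and 53.4 CPM in old KO, 437.9, 12.1 and 41.5 CPM in old WT, and 521.8, 348.8 and 298.4 CPM in young WT. The immunoproteasome genes summed to 536.8, 406.5 and 344.5 CPM in old KO, 20.3, 1058 and 1260 CPM in old WT, and 477.9, 466.7 and 648.5 CPM in young WT. The sum of the constitutive genes was thus lower in every old KO than in every young WT library, and the sums of the immunoproteasome genes overlapped.

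**Figure D5:**
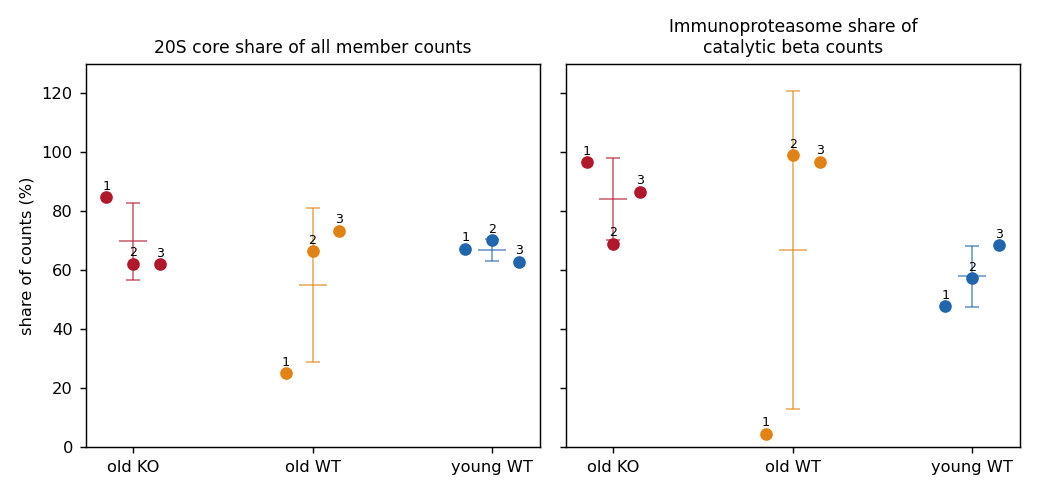
Share of counts (percent) per library, numbered by replicate, with group mean and SD: the core share of all member counts on the left and the immunoproteasome share of the catalytic beta counts on the right. Old WT runs from 24.9% to 73.4% and from 4.44% to 98.9%, while young WT stays within 62.8% to 70.1% and 47.8% to 68.5%.

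A list of 37 further genes of the pathway, of which 35 were in the table and tested, was counted in the same way. In old WT against young WT 25 of the 35 were called lower and none higher, against 18.4% lower over all tested genes and 80.0% over the 5873. In old KO against old WT 1 was called higher, against 0.457% and 2.54%. In old KO against young WT 8 were called lower, against 5.84% and 25.9%. By role, 4 of 8 assembly factors, 4 of 5 activators and inhibitors, 2 of 4 further subunits, 3 of 3 bound enzymes, 2 of 4 regulators and 10 of 11 ubiquitin and delivery genes were called lower in old WT. Pomp, which matures the core, had 11.1, 4.96 and 149.0 CPM in old KO, 4.50, 17.2 and 18.0 CPM in old WT, and 124.2, 134.9 and 159.1 CPM in young WT. Its fold change in old WT against young WT was -7.45 ± 1.72 (SE; n = 3 per group, edgeR adjusted p = 0.00983). Like Psma4 and Psma7 it was high in the third old KO library. The gene called higher in old KO against old WT was Uba1, the enzyme that activates ubiquitin, with 173.7, 391.4 and 537.0 CPM in old KO, 11.9, 3.82 and 14.2 CPM in old WT, and 89.9, 234.9 and 247.6 CPM in young WT. Every old KO library was above every old WT library, and the fold change was 7.33 ± 1.31 (edgeR adjusted p = 0.0338). The call was lost without old KO library 3, at 6.53, without old WT library 1, 2 or 3, at 7.68, 7.04 and 7.41, and without any 1 young WT library, at 7.37 each. It was also lost with total counts (5.18), upper-quartile factors (7.16), a replicate block (7.13), a fit of just the 6 libraries compared (7.34) and subtracted background (8.82). DESeq2, which called 23.9% of genes higher in this comparison, called Uba1 higher too, at 6.89 (DESeq2 adjusted p = 5.43e-17).

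Some pathway genes had old WT libraries within or above the young WT range of CPM, yet were called lower with TMM. Psme1, a subunit of the activator that pairs with the immunoproteasome, had 322.9, 234.9 and 551.7 CPM in old KO, 254.5, 254.0 and 1284 CPM in old WT, and 304.4, 702.8 and 224.0 CPM in young WT, and was above background in all 9 libraries. By TMM it was called lower in old WT against young WT at -3.60 ± 1.07 (SE; n = 3 per group, edgeR adjusted p = 0.0225), and with total counts it stood at 0.57. The TMM call was lost without old WT library 1 or 2, at -3.39 and -3.45, and without young WT library 2, at -3.46. Rps27a, which encodes ubiquitin fused to a ribosomal protein, had 3987, 3194 and 3465 CPM in old KO, 2721, 3761 and 1801 CPM in old WT, and 2974, 2999 and 4319 CPM in young WT. It was called lower in old WT against young WT at -4.24 ± 0.85 with TMM (edgeR adjusted p = 0.00657), and with total counts it stood at -0.29 and was not called. Ubb, another ubiquitin gene, had 4706, 2276 and 4145 CPM in old KO and 1781, 1747 and 89.3 CPM in old WT. In young WT it had 3341, 2829 and 2270 CPM, so every old WT library lay below all others. Its fold change in old WT against young WT was -5.10 ± 1.17 with TMM (edgeR adjusted p = 0.0097). With total counts Ubb stood at -1.20 and was not called. Nfe2l2, a regulator of the antioxidant response, had 19.1, 4.52 and 4.73 CPM in old KO, 8.21, 201.3 and 16.5 CPM in old WT, and 71.5, 201.8 and 52.9 CPM in young WT. It was high in 1 old WT library and called lower in old WT against young WT at -4.16 ± 1.47 with TMM (edgeR adjusted p = 0.0397). Total counts gave -0.51, and the TMM call was lost without old WT library 1 or 3 or young WT library 1 or 2, at -4.25 to -3.70. Psme3, a subunit of the nuclear activator, had 6.02, 6.91 and 22.5 CPM in old KO, 10.2, 5.72 and 29.6 CPM in old WT, and 360.2, 310.9 and 187.9 CPM in young WT. It was low in all 6 old libraries, and its fold change in old WT against young WT was -8.52 ± 1.45 (edgeR adjusted p = 0.00529).

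The counts of some members may include reads of other genes, since no source used here states whether the counting used strand. In the GENCODE M21 annotation the exons of 10 of the 34 overlap those of another gene, 9 of them a gene on the other strand. Among the genes above these are Psmb9, which shares 5.79% of its exon bases with Tap1, Psmd13 with Sirt3 (10.1%), Psmb8 with Gm20496 (14.7%), Psmb7 with Nek6 (11.8%) and Psmc3 with Slc39a13 (8.25%). Psmb5, Psmb6 and Psmb7 have pseudogenes named after them, so their counts are uncertain where reads could be split between copies. The members lie on 14 chromosomes. Psmb8 and Psmb9 are neighbours on chromosome 17, at 34197721 to 34201454 and 34181987 to 34187764 (GRCm38), yet Psmb9 was the higher of the pair in the third old WT library and Psmb8 in the second.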

How the data were processed

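The authors' deposited file holds raw counts of reads per gene in 1 table. Per the submitters' processing notes the tools were Trim Galore 0.6.2, STAR 2.6.1d, HTSeq 0.10.0 and edgeR 3.24.3, with the mm10 genome. The sources used here give neither the annotation nor the strand setting. Per the labels' protocols, cDNA of 1000 cells was amplified for 13 cycles and read as pairs of 150 bp. The 5 lines that name no gene were left out throughout. Symbols and exon lengths come from GENCODE M21 and were found for 52403 identifiers.

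The main test was edgeR 4.0.16's quasi-likelihood F test (limma 3.58.1, R 4.3.3) on the counts as deposited. The 9 libraries entered 1 fit with group means, after TMM scaling and filterByExpr, and p-values were adjusted after Benjamini and Hochberg over 32582 genes at 0.05. The SE of an edgeR fold change is its absolute value divided by the square root of the F statistic. The code was tested on simulated data. Background density came from 1134 olfactory receptor genes without the densest 1%. Alternatives were total counts, upper-quartile factors, DESeq2 1.42.0, no filter, the 6 compared libraries alone, a replicate block, subtracted background, and leaving out each library. Members and lists were chosen with earlier results of these data known. Values in every library are given for the catalytic genes and, in each other subcomplex, for the 2 genes with the smallest p in old WT against young WT and in old KO against old WT; genes named outside that rule were chosen after their values were seen. Of the pathway list, the genes named were among the 2 of each role with the highest young WT mean, and Uba1 for its call. Not all genes that met this rule are named.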

Additional observations from a re-analysis of the deposited data

How the results depend on the processing

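In old WT against young WT 25 members were called, 12 with total counts and 0 with background subtracted, and 19 to 25 with 1 library left out. In old KO against old WT none was called by edgeR in any fit, including those without 1 library (0), and DESeq2 called 9. In old KO against young WT 8 were called, 19 by DESeq2, 0 with background subtracted and 0 to 9 with 1 library left out. The other settings stayed within 1.5 times of these counts, except the replicate block, given next. The cause of these shifts was not tested. Per kb of exons the young WT core share moved to 71.2% and the young WT immunoproteasome share to 42.8%.

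With replicate number as a block, the counts were 24, 0 and 0 for these comparisons. Deviations of libraries with the same number correlated between -0.037 and 0.022, and not every library correlated best with its own number. These correlations were taken over all tested genes, most of them at background. They cannot decide whether the numbers pair the libraries. Over all genes, old KO against old WT had 149 genes called higher, 2 with total counts, with upper-quartile factors or with the block, and 0 with the 6 compared libraries alone. Old KO against young WT had 2253 called higher and 1902 lower, and 0 of either with the block or without any 1 old KO library.

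In old WT against young WT fold changes turned positive with total counts for Psmb3 (1.47), Psmb5 (0.84), Psmb9 (2.14), Psmc1 (0.41), Psmc5 (0.77), Psmd11 (0.45) and Psmd12 (1.83). With background subtracted they did for Psmb3 (1.98), Psmb5 (1.40), Psmb8 (0.30), Psmb9 (2.62), Psmc1 (0.72), Psmc5 (1.26) and Psmd12 (2.34). Among the pathway genes named, Psme1 turned positive in both (0.57 and 1.20) and Rps27a with background subtracted (0.22). With 1 library left out Psmd13 ranged from -0.99 (without old WT library 1) to 0.86 and was -0.02 without young WT library 1. Psmd12 in old KO against old WT ranged from -4.70 to 0.19 (without old WT library 2). Depth in genes of old WT, the lowest of the groups, limits what can be said of members near background there.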
